A study of Mus musculus with 12 samples.

Results

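Oxidative phosphorylation genes of the mouse liver were described on 116 array probes for 83 gene names, out of 41174 gene probes on each array. They were taken by name: every probe whose gene name begins with Nduf, Uqcr, Atp5 or Cox4 to Cox8, and those for Sdha, Sdhb, Sdhc, Sdhd and Cycs. After a filter on signal, 105 of these probes, for 80 genes, were among the 21693 probes tested. Ratios compared knockout with wild-type liver RNA on 12 Agilent whole mouse genome arrays, each carrying both genotypes in different dyes (Cy3, read in green, and Cy5, read in red). The knockout mice lacked Abcb4, which encodes the transporter that moves phospholipid into bile, and such mice are used as a model of sclerosing cholangitis.

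One group was Abcb4 (-/-) liver after 9 weeks of cholic acid (CA) feeding, a diet chosen by the submitters to raise disease activity. Another was Abcb4 (-/-) liver after 9 weeks of ursodeoxycholic acid (UDCA) feeding, chosen to lower it. Abcb4 (+/+) liver stood on the other channel of every array. For each diet, 5 knockout livers were hybridised on 6 arrays. Knockout RNA carried Cy5 on arrays 1 to 3 and Cy3 on arrays 4 to 6, and 1 array of each group was a repeat of a liver with the dyes swapped. All knockout livers came from mice fed a bile acid. The effect of losing the gene and that of the diet cannot be told apart in these ratios. The labels state no age, sex, strain or bile acid dose, and do not say what the wild-type mice ate.

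Oxidative phosphorylation takes electrons from NADH at complex I and from succinate at complex II, passes them through complex III and cytochrome c to oxygen at complex IV, and uses the proton gradient so formed to drive ATP synthase, also called complex V. A hepatocyte is rich in mitochondria and depends on this chain for the ATP used in urea, glucose and bile acid synthesis. Most subunits are encoded in the nucleus, and only those nuclear genes are among the members described here.

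Median signals over the gene probes were 250.2 to 1296 in green and 59.2 to 158.2 in red. Both tested Abcb4 probes were lower in knockout liver. One had log2 ratios of -2.73 ± 0.21 (SE) with CA and -1.77 ± 0.21 with UDCA, below 0 on 6 of 6 arrays of each group. The other had -0.73 ± 0.21 and -1.28 ± 0.21, below 0 on 5 of 6 arrays of each group and saturated on 7 of 12 arrays. The labels do not say where these probes lie relative to the deleted part of the gene. All 9 hepatocyte markers with a probe, albumin among them, were well above background on 12 arrays. CA array 4 stood apart for the members: the median member had a log2 ratio of 0.17 there and -0.43 to -0.16 on the other CA arrays. Among members never saturated, the median was lowest on CA array 1, at -1.29. Counts are therefore also given without CA array 1 and without CA array 4.

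Most of these probes reached the scanner's upper limit on at least 1 array. Of the 105 tested probes, 27 were never saturated, 25 were saturated on 1 to 6 arrays and 53 on 7 to 12 arrays. The green channel was saturated for 23.8% to 68.6% of the members on a given array. The red channel was saturated for 2 members on CA array 1, 3 on CA array 2 and 21 on UDCA array 6, and for 0 on the others. A saturated spot reads at its ceiling, so the ratio it gives is compressed or shifted according to the dye that carries the knockout.

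Sequences of 4 probes show what was hybridised. The first 2 belong to Atp5b, where a dim and a bright probe of 1 gene gave different ratios, and the others to genes that were lower with CA. The Sdha probe shown is the one with the smaller fall. Each is a 60-base design from the array, 5′ to 3′, in lower case because no single base matters, with positions in mm7 as the scanner files give them.
Atp5b A_52_P553841: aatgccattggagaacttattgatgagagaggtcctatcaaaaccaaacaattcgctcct
Atp5b A_51_P207636: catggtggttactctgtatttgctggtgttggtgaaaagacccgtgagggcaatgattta
Sdha A_52_P109503: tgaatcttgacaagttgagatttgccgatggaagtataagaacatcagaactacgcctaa
Ndufaf1 A_51_P176854: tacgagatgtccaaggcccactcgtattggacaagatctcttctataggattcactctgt
The Atp5b probes lie at chr10:127585810-127586488 and chr10:127586901-127586960 on the plus strand. The Sdha probe lies at chr13:71261221-71261280 and the Ndufaf1 probe at chr2:119396617-119397251, both on the minus strand. The first Atp5b probe and that of Ndufaf1 cover 679 and 635 bases of genome with 60 bases of probe, so each is split by a gap. Exon annotation of mm7 was not used here.

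In liver of CA-fed knockout mice, oxidative phosphorylation probes were called lower at a share near that of all probes tested. Most of the falls were in complexes I and II, to which 46 and 5 of the 105 tested probes belong. Of 105 tested probes, 25 (for 21 genes) were lower and 2 were higher at an adjusted p under 0.05, and 78 were not called. Probes saturated on 7 to 12 arrays, of which 0 were called, were 21 of 46 in complex I and 1 of 5 in complex II. They were 7 of 10 in complex III, 8 of 15 in complex IV and 15 of 21 in ATP synthase. Whether the spread of the falls over the complexes follows saturation was not tested. The called falls had log2 ratios between -1.04 and -0.31, or 0.486 to 0.809 times the wild-type level. Over all probes tested, 25.4% were called lower, 34.2% higher and 59.6% in either direction. The members' share called lower was 23.8%, near that background, and their share called in either direction was 25.7%. Their median log2 ratio was -0.18, beside 0.05 over all probes, and 88 of 105 lay below 0. The share of all probes below 0 is not given here. All probes saturated on 7 to 12 arrays, a class that holds 53 of the members, had a median of -0.11. Of the 25 falls, 10 were below 0 on every array measured, 13 on all but 1, and 2 on fewer. Without CA array 4 there were 37 lower and 1 higher, beside 23.9% lower and 32.5% higher over all probes. Without CA array 1 there were 17 and 3, beside 24.1% and 33.4%, and without both 30 and 2, beside 22.2% and 31.3%. The members' share lower was thus above the background without CA array 4 and below it without CA array 1. With each array only centred on its median there was 1 called member, with the red channel alone 5, and with the deposited series values 49. Shares over all probes under these settings are not given here. In liver as a whole, fewer cells of a type and less RNA per cell cannot be told apart.

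**Figure D1:**
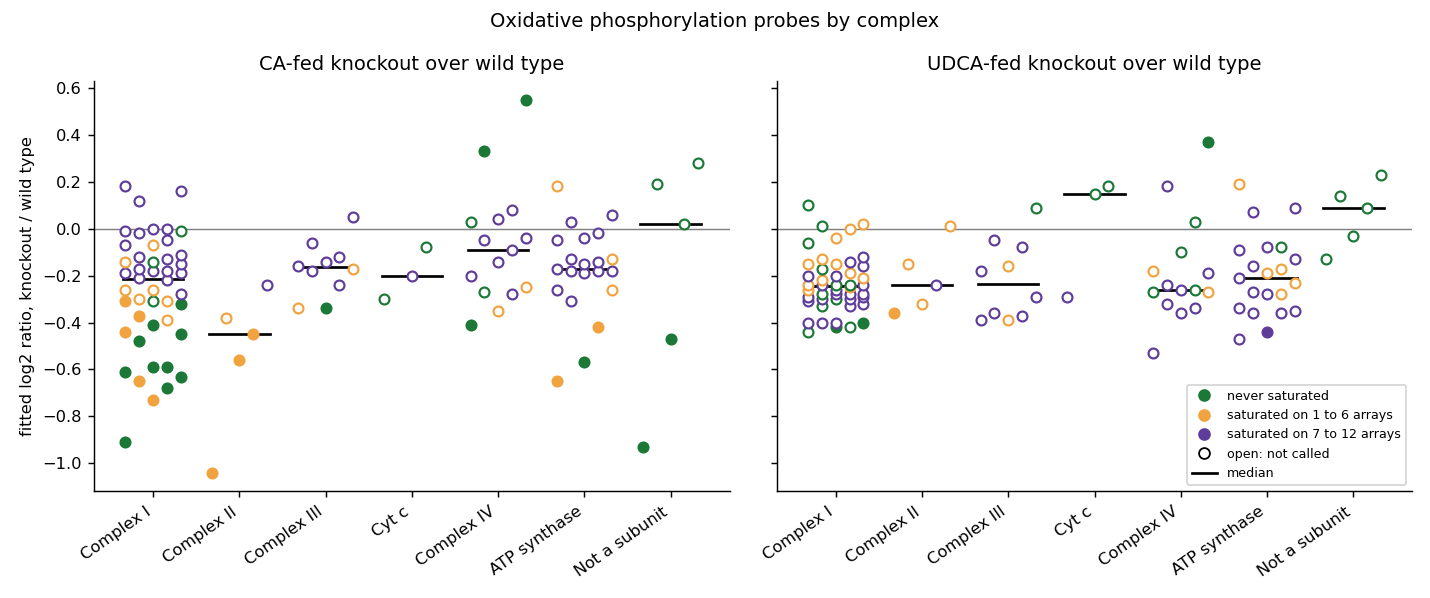
Fitted log2 ratio of each tested member probe (y axis) by complex (x axis), for CA-fed knockout over wild type on the left and UDCA-fed knockout over wild type on the right. Filled points were called at an adjusted p under 0.05, colours give how often the spot was saturated, and black lines are medians; with CA, the called falls lie among the green and orange points, down to -1.04.

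With all arrays in the fit, the calls lay among probes saturated on at most 6 arrays. Of the 27 probes never saturated, 15 (55.6%) were lower with CA and 2 were higher, with a median of -0.34. Among all probes never saturated, 25.8% were called lower and 35.4% higher. Of the 25 members saturated on 1 to 6 arrays, 10 (40%) were lower and 0 higher, with the same median of -0.34, while 29.3% of all probes of that kind were lower and 38.5% higher. This count rested on single arrays: without CA array 1 there were 5 falls, and without CA array 4 there were 17 with a median of -0.50. Of the 53 members saturated on 7 to 12 arrays 0 were called by limma, also 0 at an unadjusted p under 0.05, and their median was -0.14. Without CA array 4 this class had 4 falls and a median of -0.23. Among all probes so often saturated, 12.7% were called lower and 7.41% higher, with a median of -0.11. The medians over all probes were 0.06 for those never saturated and 0.05 for those saturated on 1 to 6 arrays.

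Dye orientation moved with the ratio in opposite ways in these classes. For members never saturated, the medians on CA arrays 1 to 3, with the knockout in Cy5, were -1.29, -0.31 and -0.62. On CA arrays 4 to 6, with the knockout in Cy3, they were 0.37, -0.11 and -0.23. For members saturated on 7 to 12 arrays, the corresponding medians were 0.45, 0.30 and 0.22 with the knockout in Cy5. Members saturated on 1 to 6 arrays had medians of -0.91, -0.60 and -0.84 on CA arrays 1 to 3. On CA arrays 4 to 6 these were 0.56, -0.07 and -0.21. The fitted model carried a dye term for each probe. That term was called for 52 of 105 members (49.5%) and for 12.9% of all probes tested. It was above 0 in 29 of the 31 members called among those saturated on 7 to 12 arrays and below 0 in all 9 called among those never saturated. Among the 25 members saturated on 1 to 6 arrays it was called for 12 and below 0 in all of them.

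**Figure D2:**
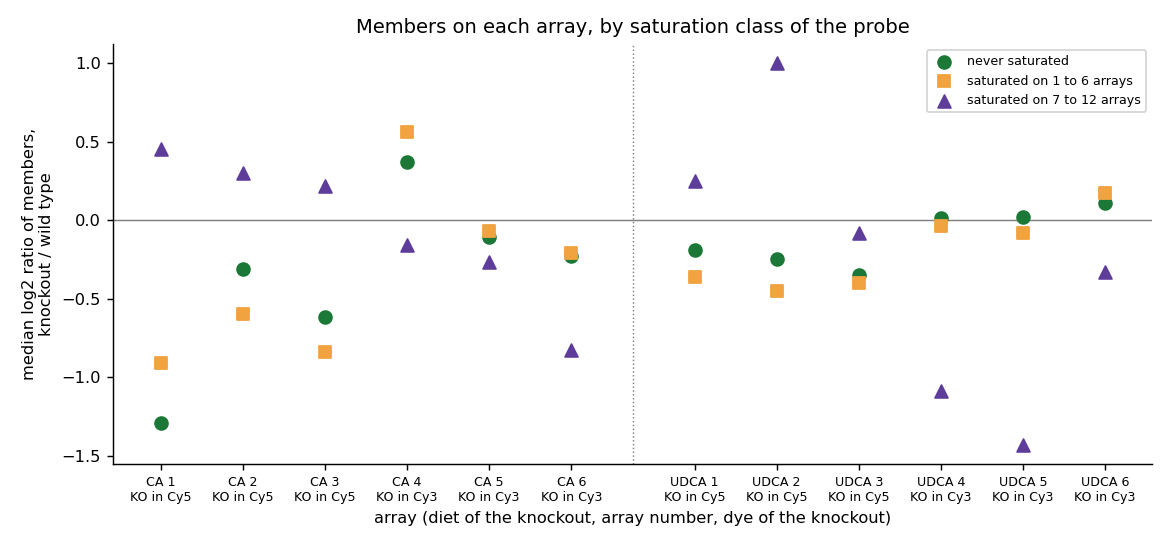
Median log2 ratio of the member probes (y axis) on each of the 12 arrays (x axis, with the dye that carried the knockout), by saturation class. Probes saturated on 7 to 12 arrays sit above 0 on CA arrays 1 to 3 and reach -1.43 on UDCA array 5, while the never saturated probes reach -1.29 on CA array 1.

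Probes for the same gene showed the same pattern. Of 20 genes with more than 1 tested probe, 17 had a brightest probe that was saturated on more arrays than the dimmest. With CA the dimmest probe was the lower one in 14 of these 17 genes, with medians of -0.31 for the dimmest and -0.17 for the brightest. With UDCA it was the lower one in 5 of 17, with medians of -0.17 and -0.22. In 0 genes were probes called in opposite directions. Of the 7 tested probes designed from cDNA clones or other accessions, none was ever saturated and 6 were lower with CA. Of the 20 never-saturated probes designed from RefSeq transcripts, 9 (45%) were lower. Cross-hybridisation to related genes or pseudogenes, which are common for this family, was not tested.

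**Figure D3:**
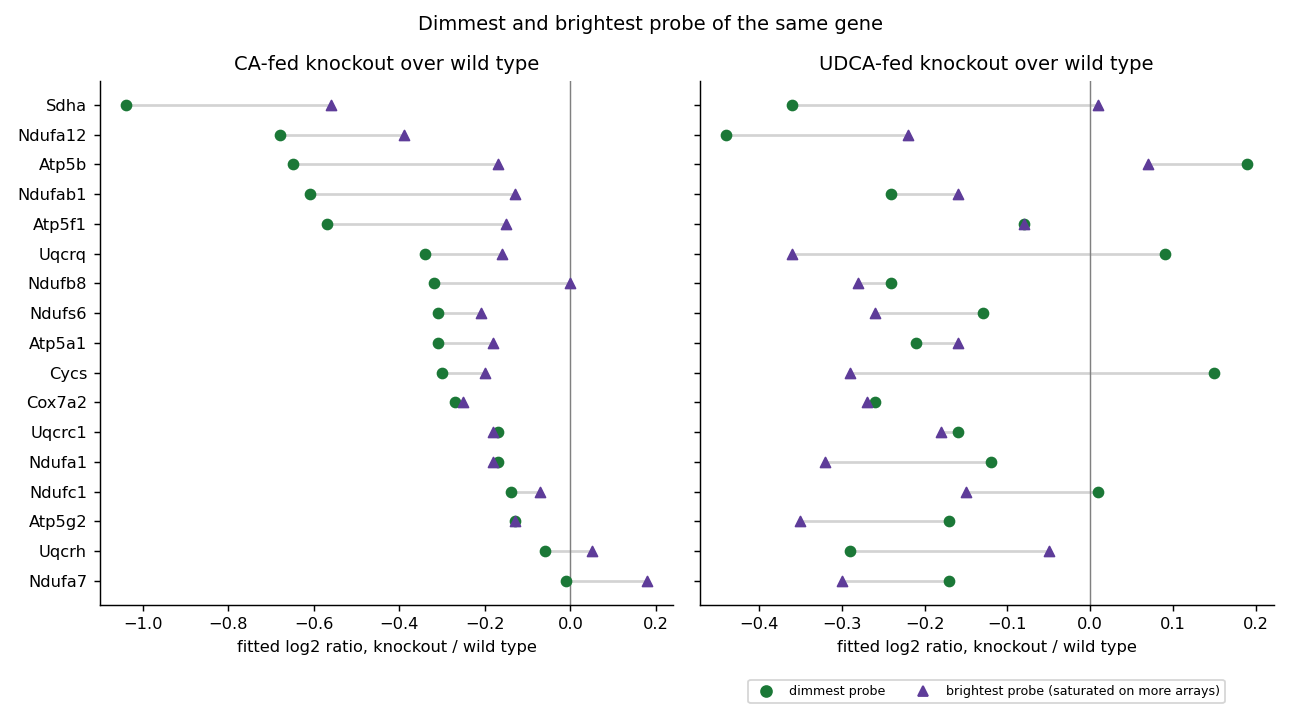
Fitted log2 ratio (x axis) of the dimmest probe (green circles) and the brightest probe (purple triangles) of the 17 genes (y axis) whose brightest probe was saturated on more arrays, for CA on the left and UDCA on the right. With CA the circle lies left of the triangle in 14 genes, with the widest gaps for Sdha, Atp5b and Ndufab1; the axes of the panels differ in range.

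Complex I, the NADH dehydrogenase, held most of the falls. Of 50 probes in the rule 46 were tested, for 35 genes, and 15 (12 genes) were lower and 0 higher with CA, with a median of -0.21. Without CA array 4 there were 22 falls, and without CA array 1 there were 10.
Ndufb5, an accessory subunit of the membrane arm, gave log2 ratios of -1.65, -1.07, -0.67, -0.72, -0.58 and -0.75 on CA arrays 1 to 6, against -0.83, -0.85, -0.73, -0.40, -0.09 and 0.47 on UDCA arrays 1 to 6. All CA arrays were below 0, as were 5 of the UDCA arrays, and the groups overlapped. The fitted ratio was -0.91 ± 0.13 (SE, adjusted p = 2.63e-05) with CA and -0.40 ± 0.13 (adjusted p = 0.0355) with UDCA.
Ndufa12, an accessory subunit of the peripheral arm, was lower with CA on 2 of its 3 probes, at -0.68 ± 0.16 (adjusted p = 0.00216) for the one with the largest change. Ndufa6, an accessory subunit of the LYR family, was lower with CA at -0.65 ± 0.16 (adjusted p = 0.00245). On CA array 4 both went the other way, at 0.16 for Ndufa12 and 0.49 for Ndufa6. Ndufs8, a core subunit that holds iron-sulfur clusters, was lower with both diets, at -0.45 ± 0.14 (adjusted p = 0.0133) with CA and -0.42 ± 0.14 (adjusted p = 0.0468) with UDCA. Without CA array 1 the CA call for Ndufs8 was lost (-0.31, adjusted p = 0.0636).

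Ndufaf1, an assembly factor of complex I and no subunit of it, showed a fall of similar size. Its log2 ratios were -1.59, -0.81, -0.98, -0.25, -1.02 and -0.95 on CA arrays, against -0.14, -0.22, -0.16, -0.26, -0.03 and 0.01 on UDCA arrays. All CA arrays but array 4 lay below every UDCA array. It was lower with CA (-0.93 ± 0.12, adjusted p = 1.14e-05) and not called with UDCA (-0.13 ± 0.12, adjusted p = 0.484).

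Complex II, the succinate dehydrogenase that is also an enzyme of the tricarboxylic acid cycle, had 3 of 5 tested probes lower and 0 higher with CA, with a median of -0.45. The flavoprotein Sdha, which oxidises succinate, gave -1.19, -0.65, -0.89, -1.34 and -1.15 on CA arrays 1, 2, 4, 5 and 6 with probe A_51_P410823, against -0.24, -0.63, -0.40, -0.44, -0.01 and -0.42 on UDCA arrays 1 to 6. Every CA array lay below every UDCA array. The value on CA array 3 was an outlier spot and was dropped. This was the largest fall among the members, at -1.04 ± 0.12 (adjusted p = 6.04e-06) with CA, and the probe was lower with UDCA too (-0.36 ± 0.11, adjusted p = 0.0323). The other Sdha probe gave -0.60, 0.41, -1.62, -0.45, -1.02 and -0.11 on CA arrays, against 0.09, -0.24, -0.41, 0.13, 0.73 and -0.24 on UDCA arrays. It was lower with CA (-0.56 ± 0.20, adjusted p = 0.0259), which was lost without CA array 3, 4 or 5, at adjusted p of 0.129, 0.053 and 0.107. With UDCA it was not called (0.01 ± 0.20, adjusted p = 0.979).
Sdhc, a membrane anchor, was lower with CA at -0.45 ± 0.15 (adjusted p = 0.0188), with values from -1.47 to 0.56 over the arrays, and without CA array 1, 3 or 6 the adjusted p was 0.056, 0.0904 and 0.0537. The iron-sulfur subunit Sdhb had -0.38 ± 0.16 (adjusted p = 0.05) with CA and the anchor Sdhd, saturated on 12 of 12 arrays, had -0.24 ± 0.18 (adjusted p = 0.279). Neither was called with UDCA, at -0.32 ± 0.16 and -0.24 ± 0.18.

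Complex III, which passes electrons from ubiquinol to cytochrome c, had 10 probes tested, with 1 lower and 0 higher with CA and a median of -0.17. Without CA array 4 there were 3 falls. Uqcrq, a small subunit of the complex, gave -0.40, -0.54, -0.05, -0.28, -0.33 and -0.43 on CA arrays with the probe that fell, against 0.46, 0.18, 0.03, -0.28, -0.08 and 0.24 on UDCA arrays. All CA arrays were below 0, and the groups overlapped. Its ratio was -0.34 ± 0.10 (adjusted p = 0.0111) with CA and 0.09 ± 0.10 (adjusted p = 0.58) with UDCA, and the CA call was lost with slide as a fixed block (-0.24, adjusted p = 0.144). That probe was dim, well above background in wild-type RNA on 5 of 6 CA arrays and 3 of 6 UDCA arrays, while the other Uqcrq probe was saturated on 12 arrays and was not called (-0.16 with CA).
Cycs encodes cytochrome c, the soluble carrier between complexes III and IV. Its 3 probes had -0.30 ± 0.14, -0.20 ± 0.13 and -0.08 ± 0.14 with CA, the lowest adjusted p being 0.0674, and 0.15 ± 0.14, -0.29 ± 0.17 and 0.18 ± 0.14 with UDCA. None was called with either diet.

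Complex IV, cytochrome c oxidase, was where the 2 rises lay, both in isoforms that other tissues use. Both probes were dim and passed the filter on signal through knockout RNA, the side where they were higher, and not through wild-type RNA. Of 19 probes in the rule 15 were tested, with 2 higher, 1 lower and 12 not called with CA, and a median of -0.09. Without CA array 4 there were 1 higher and 4 lower with a median of -0.27, and without CA array 1 there were 2 higher and 0 lower. Cox6a2, the heart and skeletal muscle form of subunit 6A, gave 0.59, 1.0, 0.40, 0.58, 0.57 and 0.17 on CA arrays, against 0.49, 0.43, 0.42, 0.05, 0.00 and 0.85 on UDCA arrays. No array of either group was below 0. It was higher with CA (0.55 ± 0.12, adjusted p = 0.00103) and with UDCA (0.37 ± 0.12, adjusted p = 0.0348). Its signal was low: in wild-type RNA it was well above background on 4 of 6 CA arrays and 2 of 6 UDCA arrays, and in knockout RNA on 6 of 6 of each.
Cox6b2, the testis form of subunit 6B, gave 0.61, 0.41, 0.47, 0.47, 0.14 and -0.13 on CA arrays, against -0.30, 0.05, 0.12, 0.02, 0.13 and 0.17 on UDCA arrays. It was higher with CA (0.33 ± 0.11, adjusted p = 0.0153), not without CA array 4 (0.29, adjusted p = 0.0513) or with slide as a fixed block (0.21, adjusted p = 0.222), and not called with UDCA (0.03 ± 0.11, adjusted p = 0.871). Its wild-type signal was well above background on 4 of 6 CA arrays and 3 of 6 UDCA arrays, and its knockout signal on 6 of 6 and 5 of 6, so the size of its ratio rests on a weak channel. Its widespread counterpart Cox6b1 was lower with CA at -0.41 ± 0.15 (adjusted p = 0.0228), and without CA array 1, 3 or 6 the adjusted p was 0.104, 0.0606 and 0.0959. Cox7a1, the heart and muscle form of subunit 7A, was not called, at 0.03 ± 0.14 with CA and -0.10 ± 0.14 with UDCA. The isoforms Cox4i2, Cox8b and Cox8c did not pass the filter on signal. Cox7a2l, which joins complexes III and IV into supercomplexes and is no fixed subunit, was lower with CA at -0.47 ± 0.12 (adjusted p = 0.00403), over 4 arrays, since CA arrays 4 and 6 had outlier spots. With those spots kept it was -0.28 (adjusted p = 0.0286), and with slide as a fixed block -0.40 (adjusted p = 0.152).

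Most tested markers of striated muscle and brown fat were higher with CA, as Cox6a2 was, but not with UDCA, where Cox6a2 was higher too. Of 12 such markers 5 were tested, and with CA 4 of them were higher (Actc1, Tnnt2, Tnni2 and Cidea, at 0.46 to 0.92) and 0 lower. The other, Mb (myoglobin), was not called, at -0.07 with CA and -0.21 with UDCA. With UDCA 1 was higher and 0 lower. Their summed level was 1230 to 2270 intensity units in CA-fed knockout liver, against 814 to 1350 in wild-type liver on the same arrays. It was 1160 to 1590 in UDCA-fed knockout liver, against 1010 to 1220 in its wild-type liver. The muscle genes Ckm, Myh6 and Myl1 were well above background on 0 arrays, Tnnt3 on at most 1, and Acta1 and Myh7 on at most 2. Ucp1 of brown fat was so on 1. The part of these markers in the result was not tested.

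ATP synthase had 21 of 22 probes tested, with 3 lower and 0 higher with CA and a median of -0.17. Atp5b, the catalytic beta subunit, gave -0.52, -0.10, -1.28, -0.70, -0.90 and -0.39 on CA arrays with the first probe printed above, against 0.41, -0.05, 0.17, 0.04, 0.38 and 0.17 on UDCA arrays. Every CA array lay below every UDCA array. That probe, saturated on 1 array, was lower with CA (-0.65 ± 0.13, adjusted p = 0.000593) and not called with UDCA (0.19 ± 0.13, adjusted p = 0.342). The other Atp5b probes, saturated on 9 and 12 arrays, had -0.14 and -0.17 with CA and 0.09 and 0.07 with UDCA, none of them called.
Atp5f1, subunit b of the peripheral stalk, was lower with CA on its never-saturated probe (-0.57 ± 0.12, adjusted p = 0.00114), with values from -1.46 to -0.09, and had -0.15 on a probe saturated on 11 arrays. Atp5k, subunit e of the membrane part, was lower with CA at -0.42 ± 0.16 (adjusted p = 0.0319), with values from -1.29 on CA array 3 to 1.17 on CA array 4. That call was lost without CA array 1, 2, 3, 5 or 6, at adjusted p of 0.057 to 0.116.

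**Figure D4:**
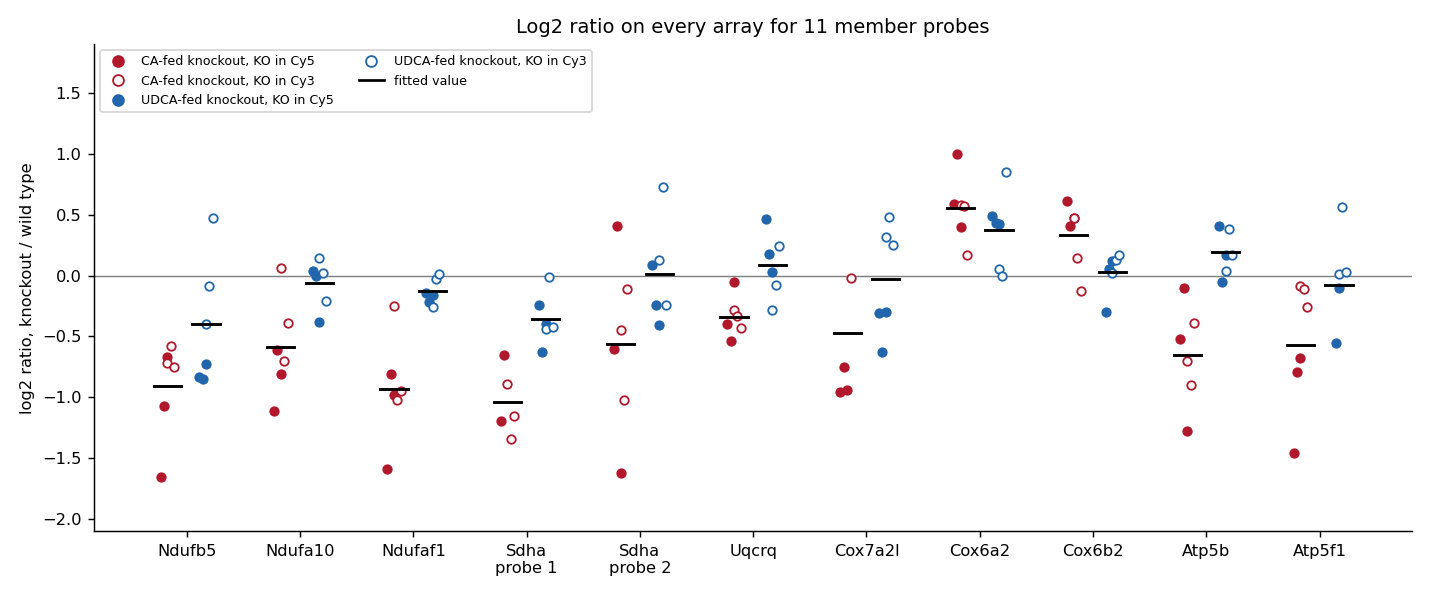
Log2 ratio of knockout over wild type (y axis) on every array for 11 member probes (x axis), CA-fed knockout in red left of UDCA-fed knockout in blue, filled where the knockout was in Cy5 and open where it was in Cy3, with black bars for the fitted values. For Sdha probe 1 (A_51_P410823) and Atp5b the red and blue points do not overlap; Cox6a2 lies above 0 in both groups.

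UDCA-fed knockout liver showed few called members. Over the tested probes, the lowest correlation of the ratios between 2 arrays was 0.022 within UDCA and 0.523 within CA. The part of this in the number of calls was not tested. Of 105 probes 4 were lower (Ndufb5, Ndufs8, Sdha and Atp5g1) and 1 was higher (Cox6a2), while over all probes tested 8.41% were lower, 15.1% higher and 23.5% in either direction. The members' share called in either direction was 4.76%. For members never saturated it was 11.1%, beside 22.6% of all such probes. For those saturated on 1 to 6 arrays it was 4%, beside 40.4%. For those saturated on 7 to 12 arrays it was 1.89%, beside 11.6%. The members' median was -0.24, beside 0.03 over all probes, and 88 of 105 were below 0. The share of all probes below 0 is not given here. Atp5g1, which encodes subunit c of the rotor ring, was lower with UDCA (-0.44 ± 0.13, adjusted p = 0.0276) and not called with CA (-0.19 ± 0.13, adjusted p = 0.243), on a probe saturated on 9 arrays. By class, the median with UDCA was -0.10 for members never saturated, -0.19 for those saturated on 1 to 6 arrays and -0.28 for those saturated on 7 to 12 arrays. Over all probes of these classes the medians were 0.03, 0.10 and -0.16 in the same order. In the last class the array medians reached 1.0 on UDCA array 2 and -1.43 on UDCA array 5.
Single arrays decided these few calls. Without CA array 1, CA array 4 or UDCA array 6 there were 9 called members, and without UDCA array 2 there were 10. Without UDCA array 1, 3 or 4 there was 1, and without UDCA array 5 there were 2. Each of the 5 calls was lost on leaving out at least 1 array. Shares over all probes with these arrays left out are not given here.

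Between the diets, 6 members differed at an adjusted p under 0.05, all lower with CA than with UDCA, 0 higher and 99 not called. Over all probes tested 10.5% were lower, 16.4% higher and 26.9% in either direction, and the members' share was 5.71%. Of members never saturated 14.8% were lower, beside 10.8% lower and 17.4% higher over all such probes. For those saturated on 1 to 6 arrays the share lower was 8%, beside 13.3% and 15.6%. Of those saturated on 7 to 12 arrays 0 were called, beside 2.12% and 1.94%. The difference between the diets is indirect, since no array carried both. Atp5b had the largest, at -0.84 ± 0.19 (adjusted p = 0.00429), then Ndufaf1 at -0.80 ± 0.17 (adjusted p = 0.00377) and Sdha at -0.68 ± 0.17 (adjusted p = 0.00828). Ndufa10, an accessory complex I subunit, differed by -0.53 ± 0.17 (adjusted p = 0.0295), after -0.59 ± 0.12 with CA and -0.06 ± 0.12 with UDCA. Cox7a2l differed by -0.44 ± 0.15 (adjusted p = 0.0468), or -0.25 (adjusted p = 0.223) with its outlier spots kept, and Uqcrq by -0.43 ± 0.15 (adjusted p = 0.0416). Of the 6, 4 were never saturated and 2 were saturated on 1 array each.
The slide each array came from partly follows the diet, and 2 slides held both. On slide 3 the differences were -1.08 for Atp5b, -0.84 for Ndufaf1, -0.90 for Sdha, -0.72 for Ndufa10 and -0.65 for Uqcrq. On slide 4 they were -0.59, -0.80, -0.86, -0.32 and -0.31 in the same order. For Cox7a2l the difference on slide 3 was 0.45, opposite to the fitted one, and on slide 4 its CA value was missing. These slide differences carry no dye term. On slide 3 the knockout was in Cy3 on the CA array and in Cy5 on both UDCA arrays. Diet and dye cannot be told apart there. On slide 4 it was in Cy3 on the CA array and UDCA arrays 4 and 5, and in Cy5 on UDCA array 3. Cox7a2l lay at -0.31, -0.63 and -0.30 on UDCA arrays 1 to 3 (Cy5), and at 0.32, 0.48 and 0.25 on UDCA arrays 4 to 6 (Cy3). CA array 5, on slide 3, was at -0.02. With slide as a fixed block there was 1 called member, and the differences for Sdha and Atp5b were -0.97 and -0.92, no smaller than without the block, at adjusted p of 0.0644 and 0.0625. Without CA array 4 there were 11 called members, and without CA array 1, CA array 5, UDCA array 1 or UDCA array 2 there were 3. Shares over all probes with the slide block or with arrays left out are not given here. The calls for Atp5b, Ndufaf1 and Sdha passed the threshold on leaving out each of the 12 arrays in turn, and those for Ndufa10, Uqcrq and Cox7a2l were lost on leaving out 5, 9 and 9 of the 12 arrays.

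Genes that work beside the chain were counted on 6 further lists, 1 probe per gene. Their counts are read against the shares over all probes given above, 25.4% lower and 34.2% higher with CA and 8.41% lower and 15.1% higher with UDCA. Of the 6 lists, the share lower with CA came nearest to that background for the mitochondrial ribosome and the carriers. Of 18 regulators of mitochondrial biogenesis, 11 were lower and 3 higher with CA (median -0.42), and 7 were lower and 0 higher with UDCA (median -0.22). Ppara, the nuclear receptor that drives fatty acid oxidation, was lower with both, at -1.71 ± 0.12 (adjusted p = 1.84e-08) with CA and -1.08 ± 0.12 (adjusted p = 1.03e-05) with UDCA. The coactivator Ppargc1b was at -1.21 ± 0.12 with CA (adjusted p = 6.28e-07) and -0.82 ± 0.12 with UDCA (adjusted p = 0.000136), and both genes were below 0 on 6 of 6 arrays of each group. Esrra, a nuclear receptor that acts on respiratory genes, was lower with CA (-0.61 ± 0.08, adjusted p = 1.6e-05), as was Polg, the polymerase of mitochondrial DNA (-0.48 ± 0.11, adjusted p = 0.00199). Sirt3, a mitochondrial deacetylase, was lower with both diets, at -0.56 ± 0.21 and -0.76 ± 0.21, on a probe saturated on 10 arrays. The transcription factor Myc was higher with CA, at 1.0 ± 0.31 (adjusted p = 0.0123). Ppargc1a, Tfam and Nrf1 were not called with CA, at -0.29 ± 0.15, -0.31 ± 0.14 and 0.00 ± 0.11.
Of 18 genes of the tricarboxylic acid cycle and pyruvate dehydrogenase, 9 were lower and 1 higher with CA (median -0.40), while 0 were lower and 1 higher with UDCA (median 0.00). Pdhb and Dlat of pyruvate dehydrogenase were lower with CA, at -0.80 ± 0.17 and -0.78 ± 0.13, as was Ogdh, which acts on oxoglutarate, at -0.68 ± 0.18. Idh2, the NADP-dependent isocitrate dehydrogenase, was higher with both diets, at 0.59 ± 0.12 and 0.68 ± 0.12. Suclg2, a subunit of succinyl-CoA ligase, had the largest difference between the diets on this list (-1.06 ± 0.21, adjusted p = 0.0023).
Of 15 assembly factors of complexes III and IV and of ATP synthase, 9 were lower and 2 higher with CA (median -0.36), and 1 was lower and 1 higher with UDCA (median -0.05). The 9 include Bcs1l and Ttc19, which act on complex III. Taco1, which activates translation of a complex IV subunit, was lower with CA at -0.87 ± 0.09 and at 0.00 ± 0.09 with UDCA. Cox19, a copper chaperone of complex IV assembly, was higher with both, at 0.48 ± 0.12 and 0.83 ± 0.12.
Of 24 genes of the mitochondrial ribosome and its factors, 8 were lower and 0 higher with CA (median -0.10), while 0 were lower and 4 higher with UDCA (median -0.04). Mrps5 and Mrpl15 of the ribosome and the elongation factor Gfm1 fell by 0.85, 0.69 and 0.71 on the log2 scale with CA. Of 22 carriers and outer membrane genes, 7 were lower and 3 higher with CA (median -0.11), and 1 was lower and 1 higher with UDCA (median -0.08). Slc25a4, a carrier that exchanges ATP for ADP, was higher with both diets at 1.46 ± 0.14 and 0.91 ± 0.13, while Slc25a20, which carries acylcarnitines, was lower with both at -1.30 ± 0.10 and -0.46 ± 0.10. Opa1, which fuses inner membranes, was lower with CA at -1.06 ± 0.10.
Of 10 other respiratory chain genes, 1 was lower and 1 higher with CA (median -0.25), and 2 were lower and 1 higher with UDCA (median -0.28). Atpif1, the inhibitor of ATP synthase, was higher with both diets, at 1.18 ± 0.17 (adjusted p = 3.42e-05) with CA and 0.79 ± 0.15 (adjusted p = 0.00166) with UDCA, above 0 on every array measured. Hccs, which attaches heme to cytochromes c and c1, was lower with CA (-0.62 ± 0.11, adjusted p = 0.000217).

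**Figure D5:**
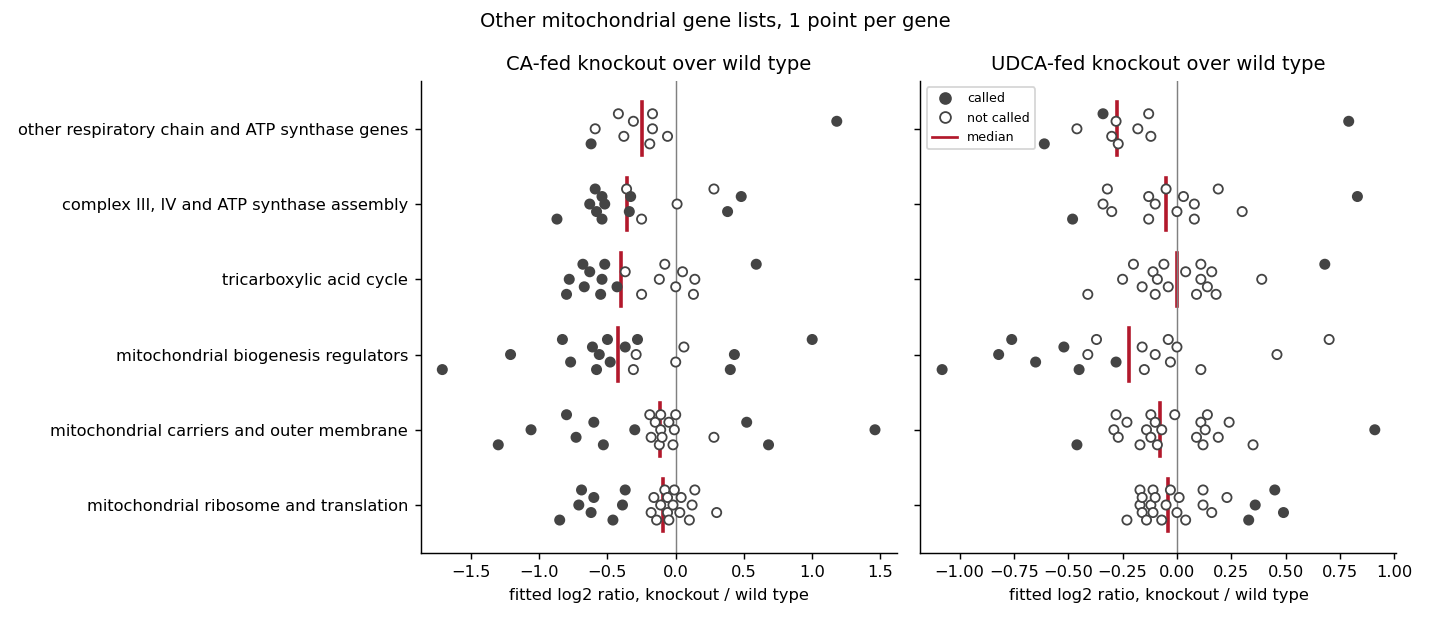
Fitted log2 ratio (x axis) of the genes on 6 other mitochondrial lists (y axis), 1 point per gene, filled where called and with red bars for medians, for CA-fed knockout over wild type on the left and UDCA-fed knockout over wild type on the right. Medians with CA run from -0.42 for biogenesis regulators to -0.10 for the mitochondrial ribosome; the axes of the panels differ in range.

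Markers of other cell types moved with both diets, and their part in the falls above was not tested. With CA all 10 cholangiocyte markers were higher (median 2.71), with a summed level of 59500 to 182000 intensity units in knockout liver, against 8740 to 44200 in wild-type liver. All 10 stellate cell and fibroblast markers were higher (median 2.48), at 81300 to 177000 in knockout liver, against 18400 to 63100 in wild-type liver. Of 8 leukocyte markers 6 were higher and 1 lower (median 1.64), at 37700 to 175000 in knockout liver, against 22500 to 107000 in wild-type liver. With UDCA the same lists had 7 of 10, 9 of 10 and 5 of 8 higher and 0 lower, with medians of 1.33, 1.78 and 0.94. Their sums were 17600 to 36800 in knockout liver against 7010 to 8300 in wild-type liver for cholangiocytes, 63500 to 123000 against 17700 to 23900 for stellate cells, and 20900 to 68300 against 13500 to 19100 for leukocytes.
Of 9 hepatocyte markers, 2 were lower and 0 higher with each diet, with medians of -0.32 for CA and -0.25 for UDCA. All 9 were saturated on at least 1 array, and their sums ran from 139000 to 611000 in CA-fed knockout liver, against 163000 to 773000 in wild-type liver. With UDCA they ran from 123000 to 634000 in knockout liver, against 145000 to 873000 in wild-type liver. All 4 tested pancreatic acinar markers were lower with CA (median -1.46), at 1530 to 7210 in knockout liver against 2890 to 65800 in wild-type liver. With UDCA 0 were called, at 2750 to 9080 in knockout liver against 3460 to 5830 in wild-type liver.

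Promoter sequences were read from a RefSeq table (GRCm38.p6) for 64 of 77 subunit gene names, over windows of 250 bases before to 50 after the start, on both strands. The NRF1 motif, GCGCA then any base and then GCGC, was present in 17 of 64 promoters (26.6%) and in 5.19% of the promoters of all 27025 genes. The YY1 motif AANATGGCG was present in 15.6% and 2.76%, the ERR motif TNAAGGTCA in 4.69% and 1.43%, and the ETS motif CCGGAAGTG in 3.12% and 2.25%. Among the subunit genes with a promoter, the NRF1 motif was present in 4 of 14 genes counted as lower with CA and in 13 of 50 counted as not. Atp5f1 was entered both under that name and under its current name, Atp5pb. Its promoter, which held no NRF1 motif, was counted among the 50, although its never-saturated probe was lower with CA. The upstream 250 bases of Sdha and Atp5k, both lower with CA, are shown because they hold NRF1 motifs, which are in capitals.
Sdha: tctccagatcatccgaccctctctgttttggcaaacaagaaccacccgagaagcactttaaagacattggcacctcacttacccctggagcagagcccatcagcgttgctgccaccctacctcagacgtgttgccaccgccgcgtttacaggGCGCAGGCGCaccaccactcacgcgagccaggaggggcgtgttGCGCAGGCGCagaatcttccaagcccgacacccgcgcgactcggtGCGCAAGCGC
Atp5k: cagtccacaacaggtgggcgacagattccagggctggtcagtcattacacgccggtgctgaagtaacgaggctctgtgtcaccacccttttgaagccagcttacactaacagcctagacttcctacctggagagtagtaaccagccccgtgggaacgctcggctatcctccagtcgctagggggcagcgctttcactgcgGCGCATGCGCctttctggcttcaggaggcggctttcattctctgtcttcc
They lie at chr13:74350241-74350490 and chr5:108434400-108434649, both on the minus strand. Counted from the start site, the motifs begin at -98, -55 and -10 for Sdha and at -50 for Atp5k, where the letters read the same on both strands. A match of letters is a description of the sequence and says nothing of binding in these livers.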

How the data were processed

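RNA of knockout and wild-type liver was read in 2 colours on 12 arrays. Per the labels, images were read with Feature Extraction 9.5.3. Per the file headers, the deposited scanner files give for each spot a mean intensity and a local background intensity without normalization, and the authors' processed signals as a log10 ratio of red over green after background subtraction and dye normalization. The deposited series values are log2 ratios whose normalization no label states. Set against the scanner files on bright spots, the CA columns ran opposite to knockout over wild type (correlation -0.974 to -0.854) and the UDCA columns ran with it (0.659 to 0.962), so the CA columns were turned round. They served as an alternative only.

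Intensities were corrected with normexp (offset 50) and loess-normalized within each array in R 4.3.3 with limma 3.58.1. Outlier spots were set to missing. Probes well above background on at least 5 of 6 arrays, in knockout or in wild-type RNA of either group, were kept. Of the 11 members not kept, 7 were cDNA clone designs for genes with another tested probe. One limma fit over all 12 arrays held CA, UDCA and a dye term, with moderated variances (9 residual degrees of freedom, 5.95 from the prior) and Benjamini-Hochberg adjustment over 21693 probes. Each array counted as a replicate, although 1 pair in each group shares a liver, and the labels do not say which, which makes p-values somewhat too small. Nothing says whether wild-type livers were shared between arrays. On data simulated for CA over wild type on 21693 probes, 40% of 100 changes of 0.5 and 89% of 100 changes of 1 (log2) were recovered, with 4 false calls. The simulated noise was independent between arrays, with no saturated spots and no shared liver, and few probes changed. In the data 59.6% of probes were called with CA, so these figures do not describe the tests on the members. The number of arrays limits the precision.

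Complexes were assigned by name, with Ndufa4 in complex IV, and Ndufaf1, Cox7a2l, Atp5s and Cox4nb set apart. Named members are, for each complex and comparison, up to 4 called genes with the largest change, plus tissue isoforms, Sdha to Sdhd and Cycs. From each further list the named genes come from the up to 3 called genes with the largest change in each comparison, with Ppargc1a, Tfam, Esrra and Nrf1 always. A result the rule would name is not reported here, and it stays in the counts. Summed marker levels are loess- and Aquantile-normalized intensities. Of 116 members, 102 matched a current RefSeq symbol by accession. The members, lists and tests were chosen with earlier results of these data known. Alternatives covered normalization, filters, saturation, slide, dye, replicate blocks and left-out arrays. Sequences were handled with Python 3 and pandas.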

Additional observations from a re-analysis of the deposited data

Results flagged for a closer look

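Among 50 sets of 6 arrays (25 member probes, each with CA and with UDCA), 2 held an array far from the others, and chance alone gives about 1 in 20. For Cox6b2, UDCA array 1 lay at -0.30, with the others between 0.02 and 0.17. For the Cycs probe A_51_P261671, CA array 1 lay at -1.42, with the others between -0.35 and 0.19.

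The diets differed for 6 members by the test of the difference itself in limma, all lower with CA relative to UDCA. The log2 differences were -0.84 for Atp5b, -0.80 for Ndufaf1, -0.68 for Sdha, -0.53 for Ndufa10, -0.44 for Cox7a2l and -0.43 for Uqcrq. On slide 3, the members' median difference was -0.10, from 1 CA array (knockout in Cy3) and 2 UDCA arrays (knockout in Cy5). On slide 4 it was -0.05, from 1 CA array and 3 UDCA arrays. Neither value carries a dye term.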

How the results depend on the processing

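Counts of called members were 27 for CA, 5 for UDCA and 6 between the diets. For the other settings, shares of all probes called are not given beside the counts below. Whether a count moved with all probes or with the members alone was not tested. Leaving out 1 array at a time gave 20 to 38 for CA, 1 to 10 for UDCA and 3 to 11 between the diets, with medians of -0.29 to -0.15 for CA and -0.30 to -0.13 for UDCA. Median centring in place of loess gave 1 for CA, 1 for UDCA and 0 between the diets (1 at an unadjusted p under 0.05). It also moved the median of all probes to 0.23 with CA and 0.29 with UDCA, and turned the UDCA values of the members' median (0.05), Ndufb5 (0.03), Ndufs8 (0.00) and Sdha (0.06). Relative to all probes, the members' median was -0.32 with CA and -0.24 with UDCA under median centring, and -0.23 and -0.27 under loess. The red channel alone, an alternative chosen after seeing the data, gave 5 for CA, 0 for UDCA (6 unadjusted) and 0 between the diets (3 unadjusted), and turned Atp5k with CA to 0.09. The deposited series values gave 49, 9 and 17. Loess with equal spread gave 13 for UDCA and 3 between the diets, the scanner software's processed signals 3 between the diets, and saturated values set to missing 11 between the diets. Slide as a fixed block gave 2 for UDCA and 1 between the diets, slide as a random block (chosen after seeing the data) 1 for UDCA, and no dye term 3 for each. The numbers do not pair arrays across diets (correlation of same-numbered residuals -0.567 to 0.134), and a replicate block gave 2 for UDCA. Averaging arrays that could be the dye-swap pair gave, for UDCA, 15 with CA arrays 1 and 4, 9 with CA arrays 3 and 4, and 0 (11 unadjusted) with UDCA arrays 1 and 4. It gave 1 with UDCA arrays 2 and 4 or 3 and 4, 2 with 1 and 5, and 3 with 1 and 6, 2 and 5, 3 and 5 or 3 and 6. Between the diets it gave 10 with CA arrays 1 and 4, and 3 with CA arrays 1 and 5 or UDCA arrays 1 and 5. Of the 29 called values of named members, 17 kept their direction and call with slide as a fixed block, 18 with the processed signals, 26 with the deposited values and 2 with median centring. The causes of these shifts were not tested. Saturation limits the ratios of 78 of the 105 members.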
